A study of Mus musculus with 6 samples.

Results

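The 10 embryonic macrophage effector genes described here were measured by RNA sequencing in the Vmed and Vhigh fractions of CD31+ckit+ cells from the mouse aorta-gonad-mesonephros (AGM) region. They are Csf1r, Cx3cr1, Mrc1, C1qa, C1qb, C1qc, Cd68, Lyz2, Mpeg1 and Ctss. They were chosen by symbol from a list of macrophage receptors, complement C1q subunits and lysosomal genes. Earlier results of these data were known when they were chosen, so their counts beside shares of all genes are descriptions only. These 10 genes are 10 of the 24062 in the count tables. The cells were sorted at embryonic day 10.5 from C57BL/6JOlaHsd embryos of the Gata2Venus genotype, in which an IRES-Venus fragment placed behind Gata2 reports its expression. Per the study's methods the embryos sorted for sequencing were G2V/+, so both fractions carried 1 reporter allele. The fractions differed in Venus fluorescence, which was intermediate in Vmed (labelled G2Vi) and high in Vhigh (labelled G2Vh). There were 3 libraries per fraction, numbered 1 to 3 in both. The study describes its sequencing values as coming from 3 independent experiments. The labels do not say whether a library came from 1 embryo or from a pool, so the p-values measure only the spread between these libraries.

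Macrophages of the midgestation embryo come largely from yolk sac progenitors and begin to colonise the embryo before hematopoietic stem cells appear in the aorta. They survive on signals through the receptor that Csf1r encodes, take up dying cells and debris, and digest them in lysosomes. C1q, which tags targets for uptake and starts the classical complement pathway, is made mainly by macrophages and not by the liver cells that make most other complement proteins. The study used CD31 and ckit to mark endothelial and emerging hematopoietic cells, not macrophages. CD31 (Pecam1) is an adhesion molecule of these cells, among others, and ckit (Kit) is the receptor for stem cell factor.

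The sort genes were measured first. Levels are given as CPM (a gene's counts scaled to the library's total counts on genes). Kit was at 64.1, 208 and 59.1 CPM in Vmed replicates 1, 2 and 3, and at 254, 490 and 521 CPM in Vhigh. Pecam1 was at 118, 569 and 476 CPM in Vmed and 160, 224 and 436 CPM in Vhigh. Gata2 was at 50.3, 29.4 and 68.3 CPM in Vmed and 39.2, 82.5 and 142 CPM in Vhigh. The Kit ranges did not overlap, whereas those of Pecam1 and Gata2 did. Libraries held 8296831 to 12035206 counts on genes, so that 3 counts, the smallest number taken as shown, are worth 0.249 to 0.362 CPM. These limits cover counting error only. The ribosomal transcript Rn45s took 0.887% to 10.5% of the gene counts, with the highest shares in replicate 3 of both fractions. Genes with at least 1 count numbered 14021, 15812 and 12709 in Vmed replicates 1, 2 and 3, and 10427, 18460 and 13434 in Vhigh. No 2 libraries agreed within counting noise.

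All 10 genes reached 3 counts in each Vmed library. In Vhigh 8 did in replicate 1, all but C1qa and C1qc, and 9 in replicates 2 and 3, all but Mpeg1. Adgre1, listed as Emr1 in the tables, encodes the macrophage surface protein F4/80. It was at 60.1, 34.6 and 29.6 CPM in Vmed, with 0, 0 and 3 counts in Vhigh. The adaptor genes Tyrobp and Fcer1g, which macrophages share with other myeloid cells, were present in both fractions (42.2 to 278 and 102 to 480 CPM in Vmed, 32.3 to 263 and 77.4 to 166 CPM in Vhigh). The Vhigh libraries thus held common myeloid transcripts while the F4/80 gene was at or near 0. These are bulk libraries, in which fewer macrophages among the sorted cells and less RNA per macrophage cannot be told apart.

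The C1q genes lie next to each other on the minus strand of chromosome 4 (GRCm38), with C1qb at 136880129-136886187, C1qc at 136889804-136893065 and C1qa at 136895917-136898803. Cd68 is at chromosome 11, 69664213-69666153, and Lyz2 at chromosome 10, 117277331-117282321, both on the minus strand. Ctss is at chromosome 3, 95526786-95556403, Mpeg1 at chromosome 19, 12460779-12465283 and Mrc1 at chromosome 2, 14229392-14332057, on the plus strand. Cx3cr1 is at chromosome 9, 119901616-120069879, on the minus strand. Beyond the C1q cluster the 10 genes shared no locus. The sequences in front of them were also compared. RefSeq promoter sequences were at hand for 8 of the 10 genes, all but Csf1r and C1qa. The 250 bases in front of the transcription start are printed for the 4 genes whose window touches no annotated exon (GRCm38.p6, 5′ to 3′ on the gene's strand), with the core of the PU.1 motif, GAGGAA on either strand, in capitals. PU.1, encoded by Spi1, is the central transcription factor of macrophages.
C1qb, chr4:136886201-136886450, minus strand: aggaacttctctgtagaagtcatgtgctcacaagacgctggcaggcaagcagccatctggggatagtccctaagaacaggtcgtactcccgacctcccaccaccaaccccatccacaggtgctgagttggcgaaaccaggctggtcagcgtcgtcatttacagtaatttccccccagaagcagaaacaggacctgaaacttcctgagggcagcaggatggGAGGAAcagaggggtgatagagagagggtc
Cd68, chr11:69666171-69666420, minus strand: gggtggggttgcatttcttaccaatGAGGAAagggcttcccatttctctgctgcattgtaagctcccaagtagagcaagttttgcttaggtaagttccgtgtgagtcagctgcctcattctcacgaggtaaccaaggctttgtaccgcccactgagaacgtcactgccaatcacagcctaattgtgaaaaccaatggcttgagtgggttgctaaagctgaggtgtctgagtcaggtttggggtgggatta
Ctss, chr3:95526536-95526785, plus strand: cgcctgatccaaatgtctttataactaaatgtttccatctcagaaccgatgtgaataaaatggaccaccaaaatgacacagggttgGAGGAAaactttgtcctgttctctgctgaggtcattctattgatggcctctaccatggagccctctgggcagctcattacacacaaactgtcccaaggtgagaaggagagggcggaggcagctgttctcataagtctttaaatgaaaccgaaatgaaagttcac
Mpeg1, chr19:12460520-12460769, plus strand: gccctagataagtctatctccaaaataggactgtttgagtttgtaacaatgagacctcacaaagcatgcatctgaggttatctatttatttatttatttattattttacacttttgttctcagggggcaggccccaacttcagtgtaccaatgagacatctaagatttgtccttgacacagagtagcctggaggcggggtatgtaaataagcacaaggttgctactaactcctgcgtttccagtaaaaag
The core stood at -30 to -25 in C1qb, -225 to -220 in Cd68 and -164 to -159 in Ctss, counted back from the start, and was not in the Mpeg1 window. It was also in the windows of Mrc1, at 3 places, and of C1qc, so 5 of 8 windows held it, against 23.1% of 27025 promoters of the same length. The windows not printed overlap annotated exons of their own gene. Of their 250 bases, exons take all 250 in Cx3cr1, 151 in C1qc, 49 in Lyz2 and 22 in Mrc1. The core that MAF factors bind, TGCTGA on either strand, was in 3 of 8 windows (C1qb, Ctss and Lyz2) and in 15.8% of all promoters. CACGTG, the core of the element through which TFEB acts on lysosomal genes, was in 0 of 8 and in 6.05% of all promoters. TGANTCA (AP-1) was in 1 of 8, that of Cd68 at 2 places, and in 6.87% of all, and TATAAA in 1 of 8, that of Ctss, and in 13% of all. These matches describe the letters only.

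The macrophage genes as a group stood lower in Vhigh than in Vmed. Their summed level was 1877, 988 and 1070 CPM in Vmed replicates 1, 2 and 3 (1312 ± 491, SD, n = 3) and 517, 140 and 150 CPM in Vhigh (269 ± 215, SD, n = 3). Each Vmed sum was above each Vhigh sum, and the ratio of Vmed to Vhigh was 3.63, 7.08 and 7.13 in replicates 1, 2 and 3. Without C1qb, the most abundant member, the ratios were 2.81, 5.45 and 5.60.

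**Figure D1:**
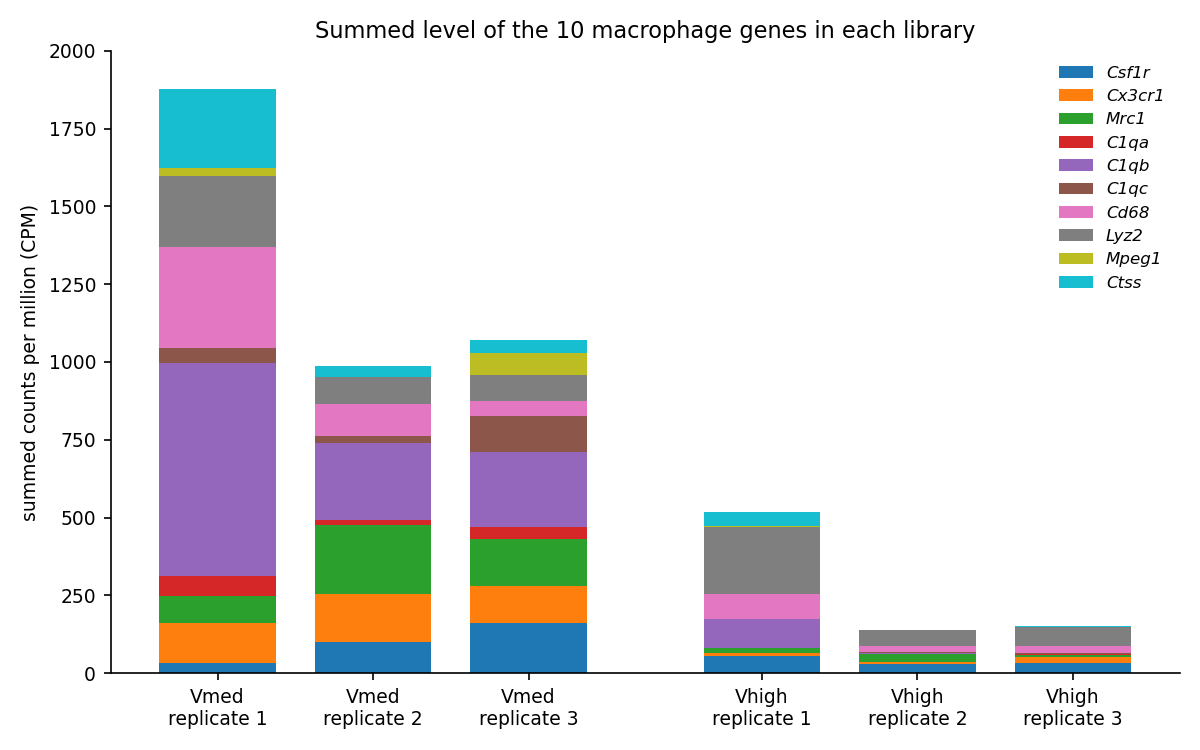
Summed CPM of the 10 macrophage genes (stacked, linear axis from 0) in each of the 6 libraries. The Vmed bars reach 988 to 1877 CPM and the Vhigh bars 140 to 517 CPM, and C1qb is the largest segment in each Vmed bar and Lyz2 in each Vhigh bar.

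The composition of the sum differed as well. C1qb was the largest member in each Vmed library, with 36.5%, 25.0% and 22.4% of the summed CPM in replicates 1, 2 and 3. In Vhigh the largest was Lyz2, with 41.4%, 35.2% and 39.6%. Receptors, C1q subunits and lysosomal genes were also summed by role. The receptor sum was 248, 477 and 431 CPM in Vmed and 79.7, 61.0 and 58.1 CPM in Vhigh. The C1q sum was 797, 285 and 396 CPM in Vmed and 93.0, 6.45 and 6.98 CPM in Vhigh. Receptor and C1q sums did not overlap between the fractions. The lysosomal sum was 832, 227 and 243 CPM in Vmed and 344, 72.1 and 85.0 CPM in Vhigh, so that Vhigh replicate 1 exceeded Vmed replicates 2 and 3. Within each replicate number the lysosomal sum was higher in Vmed, by 2.42, 3.15 and 2.86 times, and the C1q sum by 8.57, 44.2 and 56.7 times. Replicate 1 of both fractions had the highest lysosomal and C1q sums of its fraction, whereas in Vmed its receptor sum was the lowest.

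The fractions were compared in 1 fit of the whole table with edgeR's quasi-likelihood test on TMM-normalised counts, which corrects library sizes for composition, and p-values were adjusted by Benjamini-Hochberg over 12688 genes. None of these genes had an adjusted p below 0.05 (0% of genes tested), and the smallest was 0.664, so 0 of the 10 macrophage genes passed. At an unadjusted p below 0.05, 259 genes were called in either direction. All 10 macrophage genes passed the filter on low counts. For C1qa and C1qc only 2 Vhigh libraries, and for Mpeg1 only 1, reached the minimum of about 0.982 CPM. These 3 were thus kept through their Vmed levels, which favours lower values in Vhigh, and the reverse held for 0 of the 10. Over all 12688 genes tested the numbers were 2536 and 697. The counts and medians of the 10 genes below include these 3 and are a description only. The log2 fold changes, Vhigh over Vmed throughout, were below 0 for 10 of 10 genes, with a median of -3.39 beside -0.02 for all genes tested. By unadjusted p, 6 were below 0.05 and lower in Vhigh (Cx3cr1, Mrc1, C1qa, C1qb, C1qc and Mpeg1), as were 1.17% of all genes tested. In 5 of the 10 (Cx3cr1, Mrc1, C1qa, C1qb and C1qc) each Vhigh library was below each Vmed library, as in 4.71% of all genes tested. For these 5 the exact permutation test (two-sided) gave p = 0.1, the smallest that 3 libraries against 3 allow.

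Libraries with the same number deviated together from their fraction's mean, so the numbers were also used as pairs. In 9 of the 10 genes Vhigh was below Vmed in 3 of 3 pairs, and in Csf1r in 2 of 3. With the replicate number as a block the quasi-likelihood test again gave 0 genes at an adjusted p below 0.05, while 8 macrophage genes had an unadjusted p below 0.05, against 2.36% of all genes lower in Vhigh. edgeR's likelihood ratio test with the block gave 5 of the 10 genes at an adjusted p below 0.05 (C1qb, C1qc, Ctss, Cx3cr1 and Mrc1), against 0.378% of all genes lower in Vhigh. Without the block this test gave 0 of 10, against 0.0788%, with Mrc1 at an adjusted p of 0.0501 and Cx3cr1 at 0.0566. DESeq2 gave 4 of 10 (C1qa, C1qc, Cx3cr1 and Mrc1), against 0.248%, and no p-value for Ctss. Whether a gene passed therefore depended on the test, and Cx3cr1, Mrc1 and C1qc passed in both DESeq2 and the blocked likelihood ratio test. With each library left out in turn, 4 to 9 of the 10 genes had an unadjusted p below 0.05 and were lower in Vhigh. The fewest, 4, were left without Vmed replicate 1, against 0.739% of all genes lower in Vhigh, and the most, 9, without Vhigh replicate 1, against 1.93%, where the median of the 10 was -4.07.

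**Figure D2:**
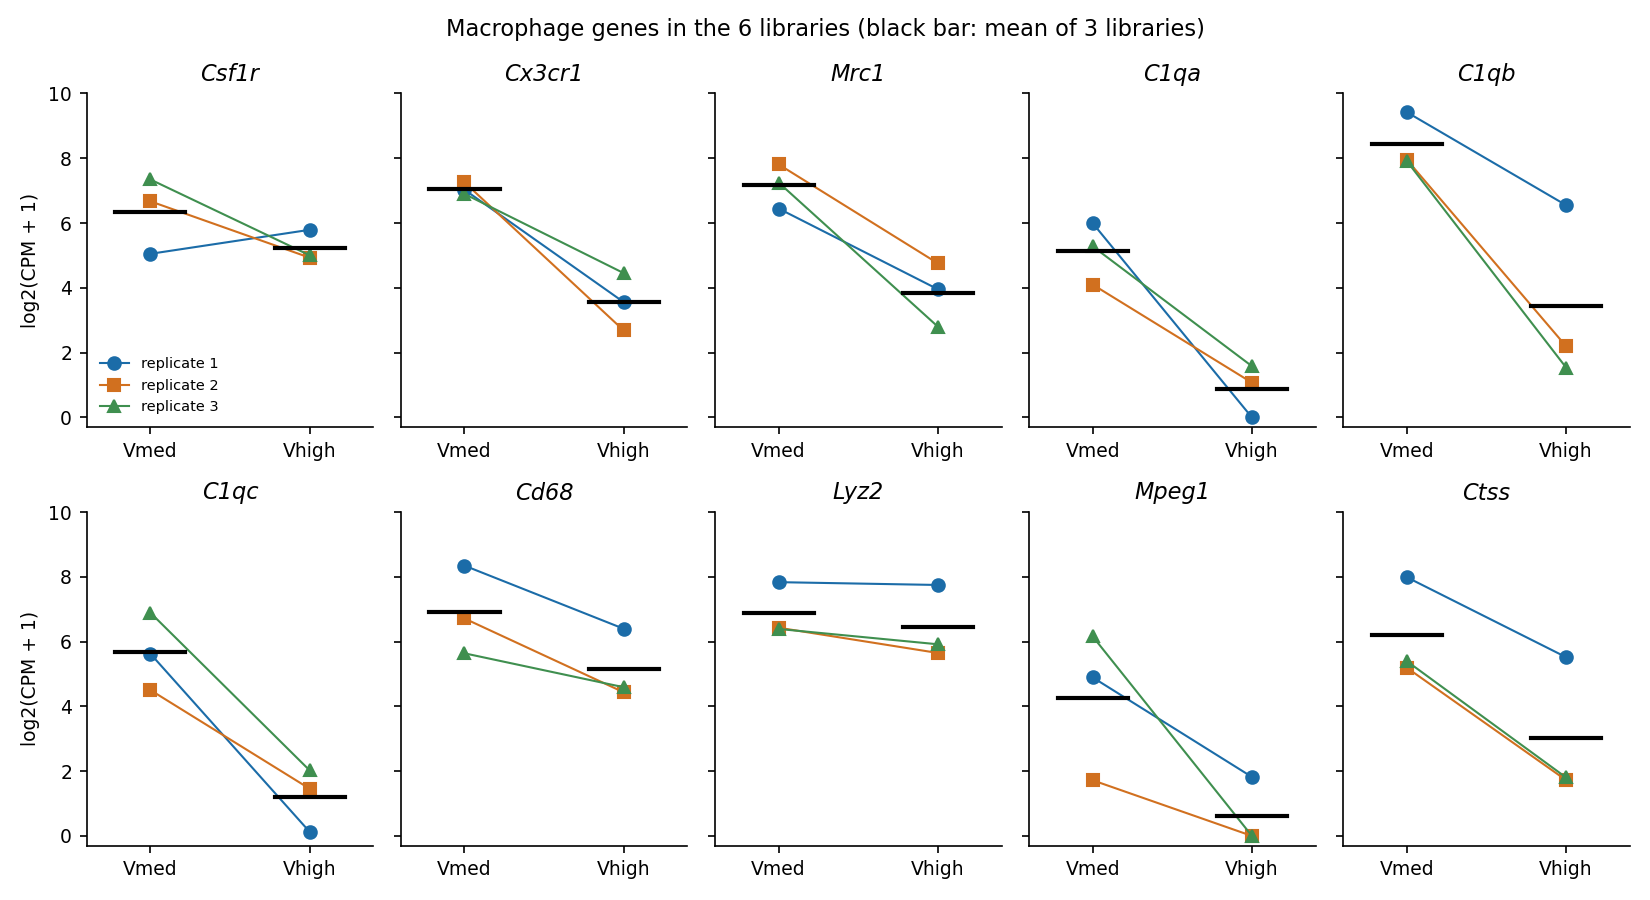
Level of each of the 10 macrophage genes as log2(CPM + 1) in Vmed and Vhigh, with a line joining the libraries of the same replicate number and a black bar at the mean of 3 libraries. Cx3cr1, Mrc1, C1qa, C1qb and C1qc do not overlap between the fractions, Csf1r crosses in replicate 1, and Lyz2 is nearly level.

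The receptor genes Cx3cr1 and Mrc1 had the lowest p-values of the 10 genes in the quasi-likelihood test, whereas C1qc had the lowest in DESeq2 and C1qb in the blocked likelihood ratio test. Cx3cr1, the receptor for the chemokine fractalkine and a marker of yolk sac-derived macrophages and microglia, was at 130, 152 and 118 CPM in Vmed. In Vhigh it was at 10.8, 5.43 and 20.9 CPM. The Vmed libraries agreed within 1.29 times of each other and stood clear of the Vhigh libraries, at 12, 28.0 and 5.65 times the Vhigh level in replicates 1, 2 and 3. The log2 fold change was -3.42 (SE 0.71), with an unadjusted p of 0.0013 and an adjusted p of 0.962 in the quasi-likelihood test, and it ranked 16 of 12688 by p. Mrc1, the mannose receptor, which takes up glycoproteins, was at 86.4, 224 and 151 CPM in Vmed and 14.5, 26.1 and 5.98 CPM in Vhigh. Its Vmed levels were 5.94, 8.59 and 25.3 times those in Vhigh in the 3 pairs, and its log2 fold change was -3.37 (SE 0.69, unadjusted p = 0.00121, adjusted p = 0.962), rank 15. DESeq2 put Cx3cr1 and Mrc1 at adjusted p-values of 0.00166 and 0.00435, and the blocked likelihood ratio test at 0.00885 and 0.00488.

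Csf1r, the receptor for the growth factors Csf1 and Il34, overlapped between the fractions. It was at 32.1, 101 and 162 CPM in Vmed and 54.4, 29.6 and 31.2 CPM in Vhigh. Vmed replicate 1 was among the low libraries and Vhigh replicate 1 was the highest of its fraction. The Vmed level was 0.591, 3.42 and 5.19 times the Vhigh level in replicates 1, 2 and 3. The log2 fold change of -1.35 (SE 0.77) did not pass at an unadjusted p of 0.115, and -1.23 (SE 0.75) was fitted with the replicate block. It was -0.75 without Vmed replicate 3. Reads of Csf1r cannot be told apart from those of Hmgxb3, on the other strand, over 15.1% of its exon length, as the sources used here state no strand setting for the counting. Its ligand Csf1 was at 2.40, 5.67 and 17.7 CPM in Vmed and 0, 18.4 and 9.22 CPM in Vhigh, and Il34 had 14 counts in Vhigh replicate 2 and at most 2 in any other library. Cx3cl1, the ligand of Cx3cr1, was at 0, 10.6 and 52.9 CPM in Vmed and 0, 15.5 and 55.8 CPM in Vhigh.

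The C1q subunits were lower in Vhigh without overlap. C1q is assembled from equal numbers of A, B and C chains, which C1qa, C1qb and C1qc encode. C1qa was at 62.8, 16.2 and 37.9 CPM in Vmed and 0, 1.1 and 1.99 CPM in Vhigh. C1qc was at 48.4, 21.7 and 118 CPM in Vmed and 0.0938, 1.75 and 3.07 CPM in Vhigh. The most abundant, C1qb, was at 686, 247 and 240 CPM in Vmed and 92.9, 3.59 and 1.91 CPM in Vhigh. C1qa and C1qc stayed at or below 3.07 CPM in each Vhigh library, while C1qb reached 92.9 CPM in Vhigh replicate 1.

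The log2 fold changes were -5.30 (SE 1.50) for C1qa, -3.50 (SE 1.20) for C1qb and -5.32 (SE 1.24) for C1qc, with unadjusted p-values of 0.0138, 0.0241 and 0.00474 and adjusted p-values of 0.9998 each in the quasi-likelihood test. Only 0.292% of all genes tested had a lower fitted value than C1qc. C1qa and C1qc were kept by the filter through their Vmed levels, which favours lower values in Vhigh, so this share is a description only. C1qa in replicate 1 was at least 223 times higher in Vmed, taking 3 counts as the limit of the Vhigh library. That Vhigh library had the fewest genes detected. In replicates 2 and 3 it was 14.6 and 19.0 times higher. C1qc was 516, 12.4 and 38.3 times higher in Vmed in replicates 1, 2 and 3, where the first ratio rests on 1 Vhigh count and has an exact 95% counting interval of 92.1 to 20425. The C1qb ratio was 7.38, 68.8 and 126 times, so that it was lowest in replicate 1 where that of C1qc was highest. The C1qb log2 fold change was -7.29 without Vhigh replicate 1 and -5.42 (SE 0.76) with the replicate block.

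In Vhigh replicate 1 the C1q subunits stood furthest apart. Of the 12688 genes tested, 3024 had 0 counts in this library, against 73 and 790 in Vhigh replicates 2 and 3. In Vmed replicates 1, 2 and 3 the numbers were 832, 322 and 1037. The zeros of Vhigh replicate 1, that of C1qa included, are to be read beside this. This library held 990 counts of C1qb with 0 of C1qa and 1 of C1qc, so that C1qb made up 99.9% of its C1q counts. The share was 86.0%, 86.7% and 60.7% in Vmed replicates 1, 2 and 3, and 55.7% and 27.4% in Vhigh replicates 2 and 3, where C1q counts numbered only 70 and 84. Per length of exon, as RPKM (CPM divided by the exon length in kilobases), C1qb was 10.4, 14.6 and 6.05 times C1qa in the Vmed libraries, and 3.11 and 0.916 times in Vhigh replicates 2 and 3. The 3 subunits did not stand in a fixed ratio in these libraries.

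**Figure D3:**
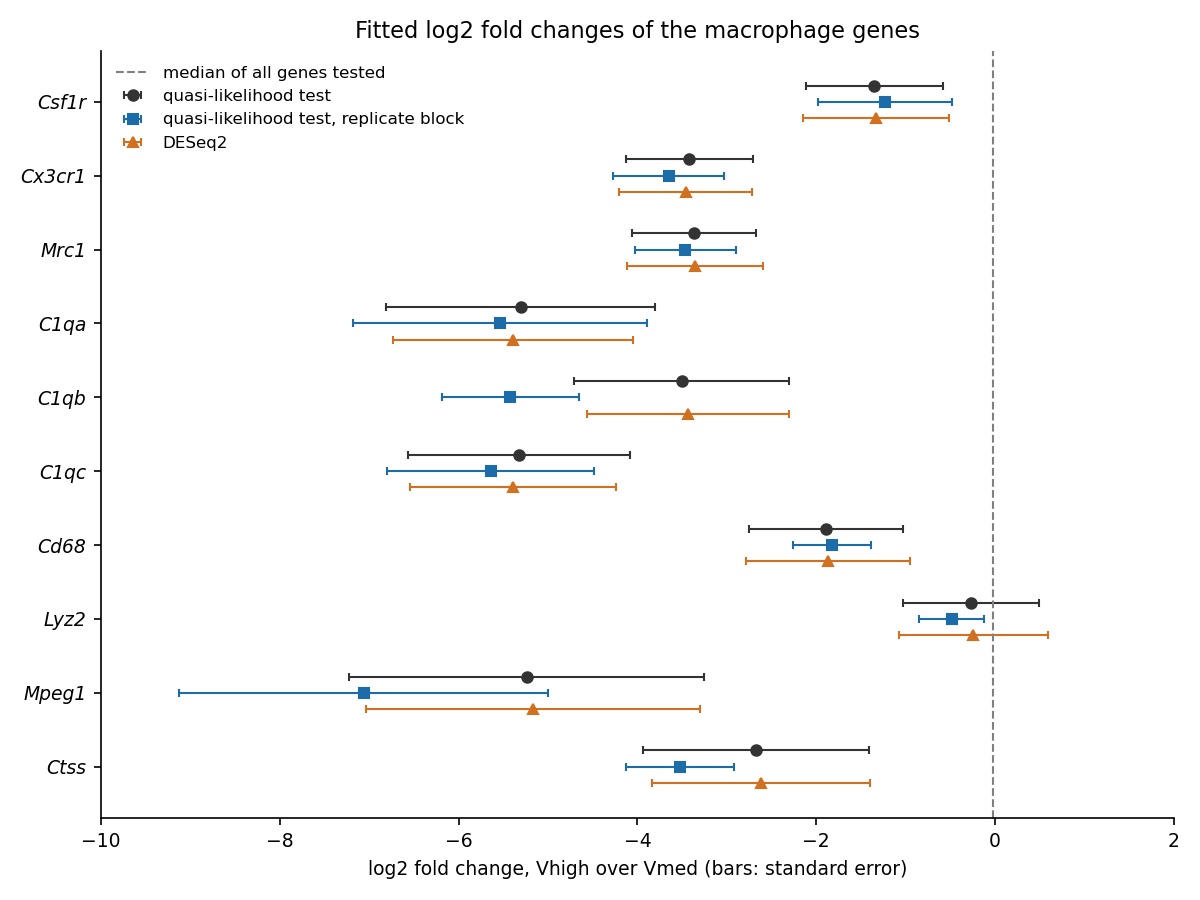
Fitted log2 fold change (Vhigh over Vmed) of each of the 10 genes from the quasi-likelihood test, the same test with a replicate block, and DESeq2, with bars of 1 standard error and a dashed line at the median of all genes tested (-0.02). Mpeg1, C1qa and C1qc lie furthest from 0 in each of the 3 fits, Mpeg1 and C1qa have the widest bars, and Lyz2 lies within 1 standard error of 0 in the fits without the block.

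The lysosomal genes ranged from Lyz2, nearly level between the fractions, to Mpeg1, at 0 counts in 2 Vhigh libraries. Lyz2 encodes lysozyme, which macrophages share with granulocytes, and was at 227, 85.1 and 82.9 CPM in Vmed and 214, 49.2 and 59.4 CPM in Vhigh. The fractions overlapped, and the Vmed level was only 1.06, 1.73 and 1.39 times the Vhigh level in the 3 pairs. The log2 fold change was -0.27 (SE 0.76, unadjusted p = 0.73), and it ran from -1.39 to 0.42 when each library was left out in turn, turning above 0 without Vmed replicate 1, Vhigh replicate 2 or Vhigh replicate 3. Of the 50-base stretches of Lyz2, 15.4% also occur in its near-identical copy Lyz1, which had at most 1 count in any library.

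The summed neutrophil markers were higher in Vhigh. Of 14 neutrophil markers, 6 were tested, 2 had lower and 4 had higher fitted values in Vhigh, and 0 passed. Their summed level was 342 to 531 CPM in Vmed and 773 to 1290 CPM in Vhigh, most of it Mpo (myeloperoxidase), at 272, 493 and 311 CPM in Vmed and 584, 1130 and 748 CPM in Vhigh. Ctsg, the neutrophil granule protease, had no count in any library. The part of granulocytic cells in the Lyz2 level was not tested.

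Cd68, a heavily glycosylated protein of lysosome membranes, was at 324, 104 and 48.8 CPM in Vmed and 83.2, 20.6 and 23.1 CPM in Vhigh. Ctss, a protease of antigen-presenting cells, was at 253, 35.6 and 41.1 CPM in Vmed and 44.8, 2.30 and 2.49 CPM in Vhigh. In both genes replicate 1 was the highest library of its fraction, and in replicates 2 and 3 alone the fractions did not overlap. Within pairs Vmed was 3.89, 5.04 and 2.11 times Vhigh for Cd68 and 5.63, 15.4 and 16.5 times for Ctss. The log2 fold changes were -1.89 (SE 0.86, unadjusted p = 0.0595) for Cd68 and -2.68 (SE 1.27, unadjusted p = 0.0745) for Ctss. Both moved with the replicate 1 libraries, to -0.77 for Cd68 and -1.10 for Ctss without Vmed replicate 1, and to -2.98 and -5.64 without Vhigh replicate 1. With the replicate block the standard errors were 0.44 and 0.60 and the unadjusted p-values 0.00782 and 0.00215, and the blocked likelihood ratio test put Ctss at an adjusted p of 0.0126 and Cd68 at 0.272.

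Mpeg1 encodes perforin-2, a pore-forming protein of phagosomes. It had 251, 19 and 684 counts in the Vmed libraries and 27, 0 and 0 in Vhigh, or 28.7, 2.29 and 70.4 CPM and 2.53, 0 and 0 CPM. The Vmed libraries differed by 30.7 times among themselves, more than those of any other member, and Vmed replicate 2 lay below Vhigh replicate 1. Vmed was 11.3 times Vhigh in replicate 1 and at least 8.29 and 282 times in replicates 2 and 3, with 3 counts as the limit. The log2 fold change was -5.24 (SE 1.98, unadjusted p = 0.0494). It was -11.46 without Vhigh replicate 1, which leaves a Vhigh fraction at 0 counts and gives a value that depends on the prior count, and -4.13 without Vmed replicate 3.

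Levels of different genes can be compared per length of exon. In Vmed the order by mean RPKM was C1qb (359 ± 235, SD, n = 3), Cd68 (126 ± 116), Lyz2 (100 ± 62.8), Ctss (80.8 ± 91.1), C1qa (37.4 ± 22.5), C1qc (32.4 ± 25.7), Cx3cr1 (29.6 ± 3.81), Mrc1 (24.1 ± 10.8), Csf1r (17.0 ± 11.2) and Mpeg1 (7.80 ± 7.92). Neighbours in this order differed by less than the larger of their SDs, while C1qb was first in 3 of 3 Vmed libraries. In Vhigh the order was Lyz2 (81.7 ± 70.1), Cd68 (33.7 ± 28.2), C1qb (30.1 ± 47.8), Ctss (12.2 ± 18), Csf1r (6.65 ± 2.41), Cx3cr1 (2.75 ± 1.75), Mrc1 (2.44 ± 1.58), C1qa (0.993 ± 0.961), C1qc (0.849 ± 0.773) and Mpeg1 (0.195 ± 0.337). Lyz2 was first in 3 of 3 Vhigh libraries, and among neighbours only Csf1r and Cx3cr1 differed by more than the larger of their SDs. Csf1r stood above Cx3cr1 and Mrc1 in each Vhigh library and in Vmed replicate 3, and below both in Vmed replicates 1 and 2.

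The 10 genes did not follow a single profile across the 6 libraries. On log2 CPM, C1qa and C1qc had a Pearson correlation of 0.98 with each other, C1qb and Ctss of 0.96, and Cd68 and Ctss of 0.95. Lyz2 stood at -0.01 with C1qc, 0.07 with C1qa and 0.10 with Csf1r. These values describe 6 libraries that share the fraction difference and differ in depth. C1qb followed the lysosomal genes Ctss (0.96) and Cd68 (0.88) more closely than it followed C1qa (0.59) or C1qc (0.56). Outside the 10 genes, those closest to their mean profile among 9547 genes with a mean of 10 CPM or more were Ckb (0.99), Ublcp1 (0.98), Fcrls (0.97), F13a1 (0.97), Lpl (0.97), Slc40a1 (0.96), Bach1 (0.96), Cald1 (0.95), Dcn (0.95) and Lypd6 (0.95). These genes were picked for likeness to a profile that was lower in Vhigh, so their own lower Vhigh levels follow from the choice. Fcrls, a scavenger receptor-like gene of microglia and yolk sac macrophages, was at 227, 102 and 87.6 CPM in Vmed and 31.6, 4.51 and 2.83 CPM in Vhigh. Slc40a1, the iron exporter ferroportin, was at 337, 332 and 167 CPM in Vmed and 82.2, 18.4 and 15.5 CPM in Vhigh.

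Other macrophage genes were read from the same fit as 6 lists by function. Of the 130 genes found, 104 were tested, 83 had fitted values below 0 and 0 passed in either direction, with a median log2 fold change of -1.12 beside -0.02 for all genes. The fractions did not overlap in 34 of the 104, against 8.87% of all genes tested, and 32 of these were lower in Vhigh, against 4.71%. The blocked likelihood ratio test called 9 of them, all lower in Vhigh, against 0.378%, and DESeq2 called 3, also lower, against 0.248%. In 36 of the 104, P2ry12 and Timd4 among them, each Vmed library but not each Vhigh library reached the minimum of the filter, so these were kept through their Vmed levels, which favours lower values in Vhigh. The reverse held for 3. Over all 12688 genes tested the numbers were 2536 and 697, and the counts and medians of these lists are a description only. The medians of the single lists ranged from 0.04 to -2.44, and that of the 10 effector genes was below each of them.

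**Figure D4:**
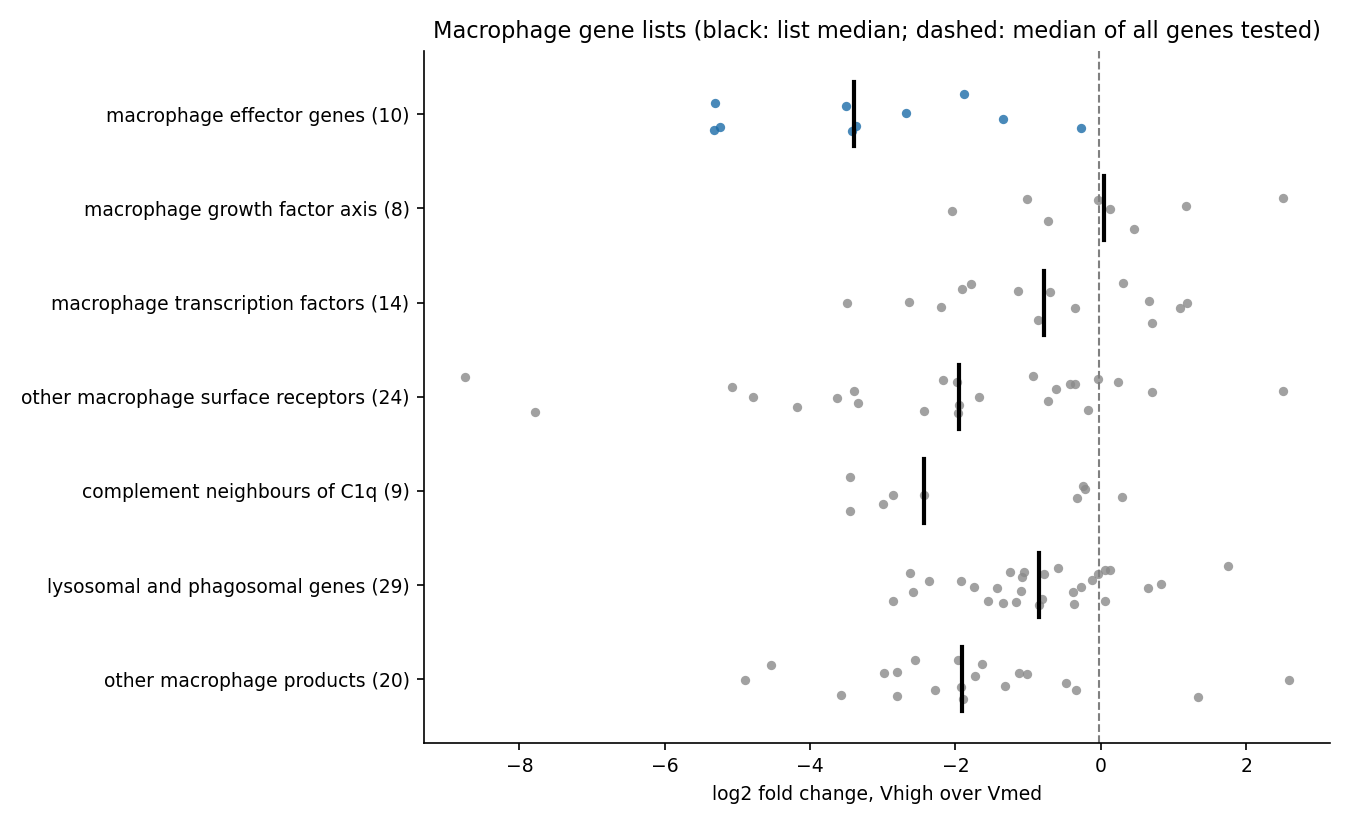
Fitted log2 fold change (Vhigh over Vmed) of each tested gene in the 10 macrophage effector genes and in 6 other lists of macrophage genes, with the number of genes tested in brackets, a black bar at each list's median and a dashed line at the median of all genes tested. The medians run from 0.04 for the growth factor axis to -2.44 for the complement genes, and that of the effector genes is -3.39.

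In the growth factor axis 4 of 8 genes tested had lower values, with a median of 0.04. The receptor gene Csf2rb had the highest fitted value, 2.50 (SE 1.12, adjusted p = 0.9998), at 25.5, 4.82 and 9.88 CPM in Vmed and 171, 41.8 and 12.4 CPM in Vhigh. Csf3r was at 40.6, 22.2 and 8.03 CPM in Vmed and 32, 76.3 and 60.0 CPM in Vhigh, and Tgfbr1 at 77.6, 147 and 104 CPM and 39.2, 86.6 and 79.4 CPM. Of 14 transcription factors tested 9 had lower values, with a median of -0.78. Spi1 was at 12.6, 2.89 and 78.2 CPM in Vmed and 20.2, 4.97 and 175 CPM in Vhigh, higher in Vhigh in 3 of 3 pairs (log2 fold change 1.08, SE 1.41, unadjusted p = 0.463). Irf8, a factor of monocytes and yolk sac macrophages, was at 23.5, 0 and 23.8 CPM and 36.9, 18.6 and 22.6 CPM. Maf, at 196, 102 and 12.7 CPM in Vmed and 76.4, 1.20 and 0.0831 CPM in Vhigh, was lower in Vhigh in 3 of 3 pairs and overlapped between the fractions. Zeb2 overlapped, at 108, 33.7 and 86.1 CPM in Vmed and 76.8, 104 and 113 CPM in Vhigh. Id3 was at 975, 447 and 427 CPM in Vmed and 241, 184 and 122 CPM in Vhigh, with a log2 fold change of -1.79 (SE 0.52, unadjusted p = 0.00698), and passed in the blocked likelihood ratio test (adjusted p = 0.00353).

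Of 24 other surface receptors tested 21 had lower values, with a median of -1.96, and 9 did not overlap and were lower, against 4.71% of all genes. Of the 24, 16 were kept by the filter through their Vmed levels, Emr1 among them. Emr1 had the lowest p of this list (unadjusted p = 0.00113, adjusted p = 0.962) and passed in DESeq2 (adjusted p = 1.69e-06) and in the blocked likelihood ratio test (0.00365). P2ry12, a purinergic receptor best known from microglia, was at 48.3, 17.1 and 13.9 CPM in Vmed and 0, 0.368 and 0 CPM in Vhigh, and Timd4, a phosphatidylserine receptor, at 38.0, 21.6 and 14.2 CPM and 0, 2.49 and 0 CPM. These genes, named after their values were seen, were at or near 0 in Vhigh like C1qa, C1qc and Mpeg1. Fcgr3 was at 152, 107 and 108 CPM in Vmed and 160, 83.8 and 43.4 CPM in Vhigh, with overlap. Stab1, a scavenger receptor of macrophages and sinusoidal endothelium, was at 137, 606 and 551 CPM in Vmed and 13.5, 47.0 and 180 CPM in Vhigh.

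Of 18 complement genes beside C1q, 9 were tested, and 8 of these had lower values, with a median of -2.44. C1ra and C1s1, the proteases that complete the C1 complex, failed the filter, with at most 2 counts of C1ra in any library and 59 of C1s1 in Vmed replicate 3. C3ar1, the receptor of the complement peptide C3a, was at 378, 158 and 115 CPM in Vmed and 73.1, 2.67 and 1.75 CPM in Vhigh, with a log2 fold change of -2.99 (SE 1.21, unadjusted p = 0.0448). C1qbp and Calr, binding partners of C1q that most cells make, were at 16.3 to 480 and 1022 to 1658 CPM in Vmed and 85.3 to 502 and 785 to 1190 CPM in Vhigh. Cd93 was at 95.6 to 333 CPM in Vmed and 142 to 271 CPM in Vhigh. C1qbp, Calr and Cd93 overlapped between the fractions, unlike C1q itself. Of the 9 genes tested, 4 did not overlap and were lower in Vhigh, C3ar1 among them, against 4.71% of all genes tested. The filter kept 3 of the 9 through their Vmed levels.

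Of 29 lysosomal and phagosomal genes tested 23 had lower values, with a median of -0.85, nearer to that of all genes than those of the receptors and complement. Ctsb was at 2814, 2374 and 1065 CPM in Vmed and 1146, 317 and 146 CPM in Vhigh, with a log2 fold change of -1.92 (SE 0.74, unadjusted p = 0.0307), and passed in the blocked likelihood ratio test (adjusted p = 0.00131). Ctsd and Ctsz, 2 other cathepsins, were at 610 to 1086 and 263 to 796 CPM in Vmed and 338 to 687 and 151 to 213 CPM in Vhigh, and Ctsz did not overlap. Npc2, a lysosomal cholesterol carrier, was at 217 to 650 CPM in Vmed and 146 to 571 CPM in Vhigh. Cst3, the cathepsin inhibitor cystatin C, was at 351, 200 and 140 CPM in Vmed and 332, 213 and 180 CPM in Vhigh, with a log2 fold change of 0.05 (SE 0.53). Of 20 other macrophage products tested 18 had lower values, with a median of -1.91. Pf4, a chemokine of megakaryocytes and of embryonic macrophages, was at 477, 381 and 150 CPM in Vmed and 132, 18.2 and 13 CPM in Vhigh, and Dab2, an endocytic adaptor, at 312, 984 and 459 CPM and 269, 90.0 and 88.3 CPM. Both were called by neither the main test nor DESeq2, and Pf4 passed in the blocked likelihood ratio test (adjusted p = 0.00147). Apoe overlapped, at 736, 116 and 373 CPM in Vmed and 367, 171 and 440 CPM in Vhigh.

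Markers of other cells the gate could hold were measured beside these genes. Of 10 mesenchyme markers tested 9 had lower values in Vhigh, with a median of -2.76, and their summed level was 2173 to 4634 CPM in Vmed and 277 to 652 CPM in Vhigh. The fractions did not overlap in 6 of them, all lower in Vhigh, against 4.71% of all genes tested. In the quasi-likelihood test 6 were lower at an unadjusted p below 0.05, against 1.17%, and 0 passed after adjustment. DESeq2 called 4 as lower (against 0.248%), the blocked likelihood ratio test 6 (0.378%) and the unblocked one 3 (0.0788%). The counts without overlap and those called by these tests equalled or exceeded those of the 10 macrophage genes. The number with lower values was smaller, 9 against 10. So was the number lower at an unadjusted p below 0.05 in the blocked quasi-likelihood test, 7 against 8. The mesenchyme markers thus stood lower in Vhigh together with the macrophage genes. They include the fibroblast proteoglycan Dcn, which was among the genes closest to the macrophage profile, and none was at 0 throughout a fraction. Of 14 endothelial markers tested 13 had lower values (median -0.67), with sums of 1520 to 6009 CPM in Vmed and 1302 to 4199 CPM in Vhigh. Stem and progenitor markers went the other way, with 14 of 14 higher (median 1.41) and sums of 540 to 1438 CPM in Vmed and 1452 to 4246 CPM in Vhigh. The part of these cells in the levels of the macrophage genes was not tested. Erythroid and megakaryocyte markers had medians of -0.85 (6 tested) and -0.92 (9 tested). Of 10 mast cell and basophil markers 3 were tested, Gata2 itself, Hdc (-1.05) and Cpa3 (3.58).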

How the data were processed

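RNA was isolated from sorted cells with the mirVana kit and amplified by the SMARTer protocol, per the labels, and single reads of 50 bp were sequenced. The authors aligned them to GRCm38/mm10 with TopHat and Bowtie 1.1.2 and deposited raw read counts per gene symbol, without normalization. HTSeq is among the tools named with the files, and the annotation and strand setting are not given in the sources used here. Alignments not assigned to a gene were left out. The 10 genes, the gene lists and the comparisons were chosen with earlier results of these data known.

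CPM were computed from each library's gene total, and RPKM with exon lengths of GENCODE vM21, which matched 23678 of 24062 genes. Vhigh was set against Vmed with edgeR 4.0.16 under R 4.3.3 (filterByExpr, TMM, quasi-likelihood test, Benjamini-Hochberg at 0.05), with the fraction as the only term, on all 6 libraries. DESeq2 1.42.0, limma 3.58.1 (voom), edgeR's likelihood ratio test, other normalizations and filters, and each library left out were alternatives. The procedure was tested on simulated data. The exact two-sided permutation test used the 20 arrangements of 6 libraries and log2(CPM + 1). Motifs were searched on both strands. Same-numbered libraries deviated together from their fraction's mean, with correlations over genes of 0.212, 0.207 and 0.388, so the replicate numbers of the labels were also fitted as a block.

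Genes named beside the 10 were the sort genes, direct partners, the 4 most abundant of each other macrophage list, genes of a list past the threshold (none), and the 10 genes most correlated with the mean z-score of the members. P2ry12, Timd4, Mpo and Ctsg were named after their values were seen, and some genes covered by the rule are not reported here. Of the listed genes, 1 was not found in the tables by symbol, and Rn45s removal was added after seeing the data. Limits from counts leave out amplification noise, since no molecular identifiers were used.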

Additional observations from a re-analysis of the deposited data

How the results depend on the processing

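The log2 fold changes of 9 of the 10 genes stayed below 0 under each alternative run. That of Lyz2 was 0.42 without Vmed replicate 1, 0.11 without Vhigh replicate 2 and 0.05 without Vhigh replicate 3, and ranged from -1.39 to 0.42 over the libraries left out; the cause was not tested. The count of all genes past the threshold, 0 in the main fit, was 37 with no filter on low counts, 21 in the likelihood ratio test, 51 in DESeq2 and 74 in the likelihood ratio test with a replicate block. Of the 10 genes, 1 passed with no filter (C1qb), 4 in DESeq2 and 5 in the likelihood ratio test with the replicate block. Leaving out each library in turn gave 0 to 1 genes in the whole table, the 1 without Vhigh replicate 1, and 0 of the 10. The median of the 10 genes then ranged from -4.07, without Vhigh replicate 1, to -2.92. Other normalizations, another filter, limma-voom, robust dispersion, removal of Rn45s and the quasi-likelihood test with the replicate block gave 0 genes each, and changed no call of the 10 genes. At 3 counts per library C1qa and Mpeg1 had a lower limit of detection of 0.249 to 0.362 CPM.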
